A study of Mus musculus with 4 samples.

Results

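Genes of adipocytes and of adipocyte formation were followed in mouse thymospheres, the free-floating cell aggregates that grow when thymus digests are kept in dishes to which cells do not attach. The set was a list of 34 genes chosen by function (regulators of adipocyte formation, lipid handling enzymes, lipid droplet proteins, adipokines, and genes of white and brown fat), and all 34 had at least 1 named probe on the array, out of 21154 genes named in all. The 2 groups were spheres from the thymus of adult mice aged 5 to 6 weeks and spheres from embryonic thymus of day 14.5, all from strain C57Bl6/N, with 2 samples and 2 Agilent 1-colour arrays in each. Both kinds of sphere were collected on day 7 of culture in a medium with B27 supplement, hydrocortisone, insulin, EGF and bFGF, to which more fresh medium was added on day 5. The labels call the spheres colonies of thymic epithelial stem cells, but they were grown from whole digests, and fibroblast and macrophage genes were measured in them beside thymic epithelial genes.

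Adipocytes arise from mesenchymal precursors in a cascade of transcription factors, in which Cebpb and Cebpd act early and Pparg and Cebpa complete and maintain the fat cell state. The mature cell takes up fatty acids, esterifies them to triglyceride, stores them in a droplet coated with perilipins, and secretes adipokines such as adiponectin, while brown fat cells also burn fat through the uncoupling protein encoded by Ucp1. Many of these genes are not exclusive to fat cells: lipid uptake and droplet genes are also used by macrophages and endothelium, and the adult thymus gains fat cells with age. In whole spheres, fewer cells of a type and less RNA per cell cannot be told apart.

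Values are log2 signals relative to each array's 75th percentile, and each log2 fold change is embryonic minus adult. A probe was tested where it was well above background, by the scanner software's own mark, in both samples of the adult group, of the embryonic group or of both, and a gene was called at an adjusted p under 0.05 in limma. Spots past this mark made up 71.6% of the total on adult array 1 and 49.6% on adult array 2, and 48.3% and 35.7% in the embryonic pair. The median log2 fold change of all 13660 genes tested was 0.80 and depends on the scaling, and each log2 fold change can be read against it. All 4 arrays shared 1 slide, each at its own position, so position and group cannot be told apart. The number of arrays limits the precision, and since the labels do not say which samples are technical replicates, a p-value reflects no more than the spread among these 4. No gene at all was called without adult array 1 or without adult array 2, although 6446 and 5517 genes then had an unadjusted p under 0.05 in limma.

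Of the 34 adipocyte genes 27 were tested, and they moved both ways. The test called 18 of them (66.7%), where it called 53.5% of all genes. In embryonic spheres 12 were called higher, which is 44.4% of those tested against 36.1% of all genes, and 6 were called lower, which is 22.2% against 17.4% of all genes. Their median log2 fold change was 1.11, against 0.80 over all genes. These shares lie near the background, so the list as a whole is not set apart by its number of calls. The groups did not overlap for 26 of the 27, against 84.0% of all genes with 4 values. Of the 16 that were bright enough for a signal on all 4 arrays, 7 were higher (43.8%, against 43.7% of all such genes) and 1 was lower (6.25%, against 2.35%). Without adult array 1, and likewise without adult array 2, none of the 27 was called, while 17 and 13 of them had an unadjusted p under 0.05.

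**Figure D1:**
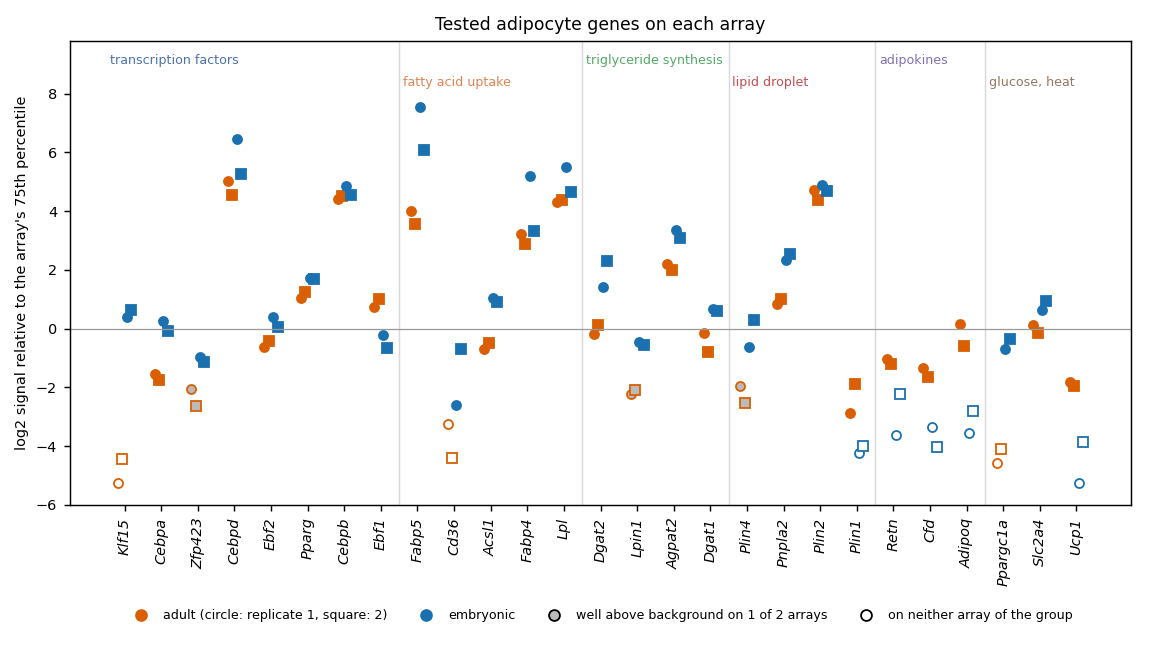
Log2 signal relative to the array's 75th percentile (y axis) of the 27 tested adipocyte genes (x axis), grouped by role, with circles for replicate 1 and squares for replicate 2 of adult (orange) and embryonic (blue) spheres. Open symbols mark a group in which neither array was well above background and grey ones a group with 1 such array; the 3 adipokine genes, Plin1 and Ucp1 are open in embryonic spheres, and Klf15, Cd36 and Ppargc1a are open in adult spheres.

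The upstream sequences of 3 members are shown, which stand for the higher, the lower and the undetected genes. Klf15 had the greatest rise and Adipoq the greatest fall among the tested members, and Lep, the leptin gene, was not well above background on any array. Upstream windows of 250 bases were taken from RefSeq (GRCm38.p6) and were held for 23 of the 34 genes, in 30 windows. Capitals mark the CCAAT box, searched as CCAAT on both strands, in the first 2 sequences and the C/EBP palindrome TTGCGCAA in the third. Klf15 is at chr6:90462326-90462575, Adipoq at chr16:23146286-23146535 and Lep at chr6:29059971-29060220, all on the plus strand, and each ends at the base before the start site.
Klf15: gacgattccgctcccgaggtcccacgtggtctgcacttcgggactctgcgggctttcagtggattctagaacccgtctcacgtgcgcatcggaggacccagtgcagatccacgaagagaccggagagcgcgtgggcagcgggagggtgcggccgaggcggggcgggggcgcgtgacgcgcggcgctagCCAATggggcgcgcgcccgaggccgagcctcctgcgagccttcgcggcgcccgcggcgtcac
Adipoq: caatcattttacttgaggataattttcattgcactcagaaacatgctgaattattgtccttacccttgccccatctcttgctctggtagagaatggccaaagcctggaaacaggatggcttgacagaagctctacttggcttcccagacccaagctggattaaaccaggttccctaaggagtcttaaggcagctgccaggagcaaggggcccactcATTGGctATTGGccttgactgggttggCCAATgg
Lep: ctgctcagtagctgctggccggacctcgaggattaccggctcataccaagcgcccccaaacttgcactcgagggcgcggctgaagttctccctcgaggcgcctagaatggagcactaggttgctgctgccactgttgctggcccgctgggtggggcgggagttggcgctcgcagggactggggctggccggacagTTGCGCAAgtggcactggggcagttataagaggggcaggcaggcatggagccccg
Klf15 held 1 CCAAT box, 62 bases before the start, and Adipoq held 3, of which 2 lie on the opposite strand. Such a box was in 33.8% of all 32851 windows and in 8 of the 30 windows of adipocyte genes. The C/EBP palindrome was in 0.164% of all windows and, among the adipocyte genes, in the Lep window only. The PPAR response element, a direct repeat of AGGTCA with 1 free base between, again on both strands, was in 0.0335% of all windows and in none of the 30. A match is a description of letters, and no binding was measured here.

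Among the 8 transcription factor genes, all tested, 3 rose, 1 fell and 4 did not pass the test. Over all genes 36.1% rose and 17.4% fell. Klf15, a Kruppel-like factor induced during adipocyte formation and by glucocorticoids, read -5.26 and -4.44 on the adult arrays, on neither of which it was well above background, and 0.38 and 0.63 on the embryonic arrays. Its level was at least 9.11-fold higher in the embryonic spheres (adjusted p = 0.00731). This bound sets the embryonic mean against the lowest signal well above background on the adult arrays. Klf15 entered the test through the embryonic group alone, so that the filter favoured this direction. Cebpa, which with Pparg maintains the fat cell state, read -1.53 and -1.76 on the adult and 0.27 and -0.07 on the embryonic arrays. Every embryonic value of Cebpa lay above every adult one, and the difference was 1.74 on the log2 scale (SE 0.32, adjusted p = 0.0126). Zfp423, a zinc finger factor of committed preadipocytes, passed the background mark on 1 adult array of 2 and read -2.05 and -2.63 there, against -0.97 and -1.13 in embryonic spheres. Its log2 fold change was 1.29 (SE 0.35, adjusted p = 0.0285, but 0.054 with an intensity trend in limma's prior), and another tested probe of it gave 2.26 (SE 0.39, adjusted p = 0.0111).

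Ebf1, an early B-cell factor that also acts in fat cell precursors, went the other way. It read 0.72 and 1.01 on the adult and -0.21 and -0.66 on the embryonic arrays and fell, with a difference of -1.30 (SE 0.34, adjusted p = 0.0257). Without embryonic array 2 it was not called (adjusted p = 0.055). It was the only called-lower adipocyte gene that was well above background on all 4 arrays. Of 6 B lineage marker genes 2 were tested: Cd79b was at least 3.36-fold higher in the adult spheres (adjusted p = 0.00751), Cd22 had a log2 fold change of 0.02 (adjusted p = 0.962), and Ms4a1 was not well above background on any array. Cd79b was dim on both embryonic arrays and entered the test through the adult group alone, so that the filter favoured its direction. The summed level of these 6 markers was 1.94 and 2.44 in adult and 1.45 and 1.31 in embryonic spheres. These sums are in units of the 75th percentile, and Cd22, which was not called, is the largest part of each. The part of these markers in the Ebf1 result was not tested. The related gene Ebf2, a marker of brown fat precursors, read -0.63 and -0.42 in adult and 0.41 and 0.06 in embryonic spheres and did not pass the test (log2 fold change 0.76, SE 0.32, adjusted p = 0.0912).

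The central regulator Pparg, a nuclear receptor for fatty acid ligands, was measured in all 4 samples and was not called. It read 1.03 and 1.26 in the adult and 1.71 and 1.70 in the embryonic samples, a difference of 0.56 (SE 0.31, adjusted p = 0.162) that lies below the median of all genes and turned negative under quantile normalization (-0.16) and with the tested genes centred (-0.10). Cebpb, which starts the cascade, read 4.42 and 4.51 against 4.87 and 4.55 (log2 fold change 0.25, SE 0.31, adjusted p = 0.512), and its sign turned in 3 of 16 alternatives. Cebpd, its early partner, read 5.03 and 4.55 in adult spheres and 6.47 and 5.28 in embryonic spheres. The embryonic arrays differed from each other by 1.19 for Cebpd, more than the mean difference between the groups (1.09, SE 0.49, adjusted p = 0.105), and without embryonic array 2 it passed (1.68, adjusted p = 0.00666). A p that misses the threshold does not show that these levels were alike.

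Of the 5 genes of fatty acid uptake and binding, 2 rose and none fell, against 36.1% and 17.4% of all genes. Fabp5, a carrier of fatty acids found in skin, macrophages and fat, read 4.02 and 3.56 on the adult and 7.53 and 6.07 on the embryonic arrays. It rose by 3.01 (SE 0.55, adjusted p = 0.0123), and the gap between the groups, 2.05, exceeded the 1.46 between the embryonic arrays. Acsl1, which activates long-chain fatty acids with coenzyme A, read -0.68 and -0.49 against 1.03 and 0.91 and rose by 1.56 (SE 0.30, adjusted p = 0.0137). That call rests on 1 probe: a second Acsl1 probe, also bright on all 4 arrays, read -0.78 and 0.17 in adult and -2.25 and -1.18 in embryonic spheres. It gave -1.41 (SE 0.52, adjusted p = 0.066), while the mean of both probes differed by 0.08 (adjusted p = 0.862).

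The adipocyte fatty acid carrier gene Fabp4 did not pass the test. It read 3.23 and 2.89 in adult and 5.20 and 3.33 in embryonic spheres, and the embryonic arrays differed from each other by 1.87, more than the groups did (log2 fold change 1.20, SE 0.64, adjusted p = 0.155). Without embryonic array 2 it passed (2.13, adjusted p = 0.000937). Lpl, the lipase that frees fatty acids from lipoproteins, read 4.32 and 4.39 against 5.51 and 4.66 (0.73, SE 0.39, adjusted p = 0.156). A second, dimmer Lpl probe passed at 1.23 (SE 0.39, adjusted p = 0.0444), and the first passed without embryonic array 2 (1.15, adjusted p = 0.0413). The sign of the first turned under quantile normalization and in the deposited value table. Cd36, a fatty acid receptor of fat cells, macrophages and endothelium, was not well above background on either adult array (-3.25 and -4.40) and read -2.60 and -0.68 on the embryonic arrays. Its bound was 2.05-fold, embryonic over adult, and it missed the threshold (adjusted p = 0.0517). It passed when either embryonic array was left out, with adjusted p of 5.01e-05 for array 1 and 0.0484 for array 2.

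Some macrophage markers were higher in embryonic spheres as well. Of 12 macrophage and myeloid markers 11 were tested, 5 were higher in embryonic spheres and none lower, against 36.1% and 17.4% of all genes. None of the 11 was called once the tested genes were centred. The complement gene C1qa read -2.71 and -2.01 in adult and 1.26 and -0.99 in embryonic spheres, and Lyz2, for lysozyme, 0.59 and 1.02 against 3.59 and 2.64. Embryonic array 1 was above embryonic array 2 for 10 of the 12 markers, with Itgam and Adgre1 the other way. It was also above for 4 of the 5 lipid uptake genes, with Cd36 the other way. Over all 13660 genes tested this was so for 5949. It was so too for all 8 fibroblast markers and for 7 of the 8 adipogenic transcription factors, so the pattern is not particular to macrophage or lipid uptake genes. The summed level of the 11 markers with a value on every array, all but Tyrobp, was 80.3 and 114 in adult and 131 and 114 in embryonic spheres. Most of each sum is Itgam, which read 6 and 6.53 in adult and 6.22 and 6.35 in embryonic spheres and was not called. Of 10 endothelial markers 8 were tested and 5 were lower in embryonic spheres, where 17.4% of all genes were. Of these 5, 4 were dim on both embryonic arrays and entered the test through the adult group alone. The filter thus favoured this direction. The summed levels of the 10 endothelial markers were 20.4 and 22.5 in adult and 21.9 and 30.8 in embryonic spheres. Most of each endothelial sum is Kdr, which was not called and read 3.44 and 3.89 against 3.95 and 4.66. These sums therefore do not follow the markers called lower. The part of macrophages or endothelium in the lipid uptake genes was not tested.

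Genes of triglyceride synthesis that could be tested were higher in embryonic spheres. Of 6 genes of synthesis and glycerol supply, 4 were tested and all 4 rose by the probe used (against 36.1% of all genes), with a median log2 fold change of 1.39 against 0.80 over all genes, and Pck1 and Gpd1 were not tested. Dgat2, which adds the last fatty acid to make triglyceride, read -0.19 and 0.13 in adult and 1.41 and 2.29 in embryonic spheres and rose by 1.88 (SE 0.41, adjusted p = 0.017). Lpin1, the phosphatase that makes diacylglycerol, read -2.24 and -2.09 against -0.47 and -0.55 and rose by 1.65 (SE 0.30, adjusted p = 0.0123). It passed the background mark on 1 adult array of 2, and a second Lpin1 probe, not tested, went the other way, at -1.94 and -2.23 in adult and -5.13 and -3.67 in embryonic spheres, where it was dim on both arrays.

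The other 2 synthesis genes changed less. Agpat2, which makes phosphatidic acid, read 2.21 and 2.00 in adult and 3.36 and 3.1 in embryonic spheres (log2 fold change 1.12, SE 0.31, adjusted p = 0.0312), and its second probe gave 1.26 (SE 0.32, adjusted p = 0.0252). Dgat1, the other enzyme of the last step, read -0.16 and -0.79 against 0.68 and 0.59 (1.11, SE 0.35, adjusted p = 0.0443). All 4 stayed positive under each scaling tried, but none was called once the tested genes were centred. Without embryonic array 1 Agpat2 (adjusted p = 0.0757) and Dgat1 (adjusted p = 0.0644) were no longer called. Pairing the arrays by replicate number as a block put Dgat1 at the threshold (adjusted p = 0.05) and so out of the calls.

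Lipid droplet genes split between higher, lower and unmeasured. Plin2, the perilipin that most cell types use, was bright in every sample at 4.72 and 4.37 in adult and 4.90 and 4.69 in embryonic spheres. It was the only tested adipocyte gene whose groups overlapped (log2 fold change 0.25, SE 0.32, adjusted p = 0.527), and its sign turned in 4 of 16 alternatives. Plin4, a perilipin of fat and muscle cells, read -1.96 and -2.53 against -0.62 and 0.30 and rose by 2.08 (SE 0.44, adjusted p = 0.0162), with 1 of its adult values past the background mark. Pnpla2, the lipase that begins triglyceride breakdown, read 0.85 and 1.00 against 2.34 and 2.55 and rose by 1.52 (SE 0.31, adjusted p = 0.0145). Plin1, the perilipin of mature fat cells, was lower in embryonic spheres. It read -2.86 and -1.87 in adult and -4.22 and -4.01 in embryonic spheres, where it was on neither array well above background, and was at least 1.05-fold higher in the adult spheres (adjusted p = 0.0223), a bound close to no difference. With an intensity trend in limma's prior Plin1 was not called (adjusted p = 0.162). Plin1 entered the test through the adult group alone, so that the filter favoured the lower direction.

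The adipokine genes that could be tested were measured in adult spheres only. Of 4, 3 were tested and called lower in embryonic spheres, against 17.4% of all genes, but all 3 were dim on both embryonic arrays and entered the test through the adult group alone, so that the filter favoured this direction. Adipoq, for the fat cell hormone adiponectin, read 0.15 and -0.60 in adult and -3.55 and -2.81 in embryonic spheres and was at least 4.62-fold higher in the adult spheres (adjusted p = 0.00908). Retn, for resistin, read -1.05 and -1.21 against -3.62 and -2.22 and was at least 2.47-fold higher in the adult spheres (adjusted p = 0.0342). Cfd, for the complement protease adipsin, read -1.34 and -1.65 against -3.36 and -4.03, at least 1.91-fold higher in the adult spheres (adjusted p = 0.0109). In each of them both adult values lay above both embryonic ones. Without embryonic array 1 Retn was not called (adjusted p = 0.0523).

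Not all of the defining genes of mature fat cells were measured in either kind of sphere. Of 7 such markers, which are all members of the adipocyte set, 4 passed the background mark in both adult samples (Adipoq, Cfd, Plin1 and Pparg) and 1, Pparg, on both embryonic arrays. Lep read -2.97 and -3.34 in adult and -4.82 and -3.72 in embryonic spheres, and Cidec, for a protein that fuses lipid droplets, -3.61 and -4.28 against -5.14 and -3.49, neither of them well above background on any array. The summed level of the 6 markers with a value on every array, all but Lipe, was 3.89 and 3.8 in adult and 3.56 and 3.68 in embryonic spheres. Pparg, which was not called, makes up most of each of these sums. They do not show that the other markers were level, and Adipoq, Cfd and Plin1 were called lower in embryonic spheres.

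Among the 4 genes of glucose uptake, heat production and adrenergic input, 1 rose, 1 fell, 1 was not called and 1 was not tested. Ppargc1a, a coactivator of Pparg that drives mitochondrial genes, read -4.57 and -4.10 on the adult arrays, neither well above background, and -0.70 and -0.36 on the embryonic arrays. Its level was at least 4.44-fold higher in the embryonic spheres (adjusted p = 0.00731), although its second probe was well above background on 1 embryonic array only (-5.32 and -4.47 against -2.97 and -3.87). Ucp1, the brown fat uncoupling protein gene, read -1.83 and -1.95 in adult and -5.25 and -3.86 in embryonic spheres. On neither embryonic array was it well above background, and it was at least 1.46-fold higher in the adult spheres (adjusted p = 0.0135). Ucp1 and its known inducer Ppargc1a were thus called in opposite directions. But Ucp1 entered the test through the adult group alone and Ppargc1a through the embryonic group alone, so that the filter favoured these directions. Slc2a4, the insulin-regulated glucose transporter gene, read 0.11 and -0.15 against 0.63 and 0.94 and did not pass (0.81, SE 0.32, adjusted p = 0.0782).

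**Figure D2:**
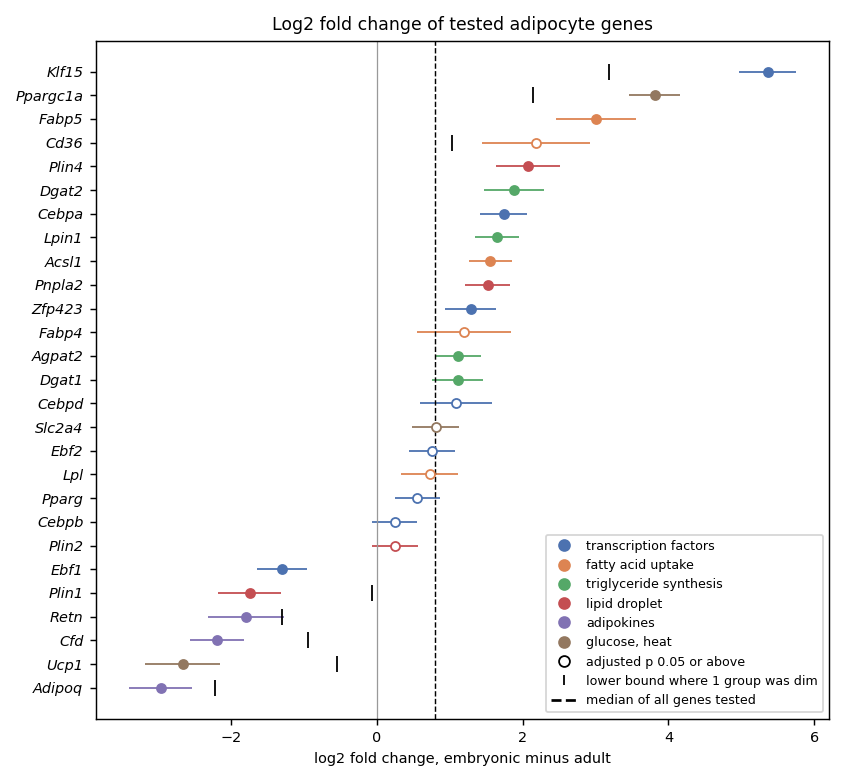
Log2 fold change (embryonic minus adult, x axis) of the 27 tested adipocyte genes with limma's standard error as bars, coloured by role; filled points passed an adjusted p of 0.05, the dashed line is the median of all genes tested (0.80), and a black tick gives the lower bound where 1 group was dim. Klf15 stands highest at 5.36 and Adipoq lowest at -2.96, and the tick of Plin1 lies next to 0.

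Of the 7 adipocyte genes not tested, 4 were bright on adult array 1 and had an adult array 2 spot that the scanner software had marked as an outlier. These were Cidea, a droplet protein of brown fat, Lipe, the hormone-sensitive lipase gene, Adrb3, the fat cell's adrenergic receptor gene, and Pck1, for an enzyme of glycerol supply. With the marked spot kept, Pck1 read 1.08 and 0.98 in adult and -5.20 and -3.96 in embryonic spheres, Cidea 0.22 and 1.42 against -5.02 and -3.58, Adrb3 -0.16 and 0.95 against -5.05 and -3.54, and Lipe -0.16 and 0.63 against -4.23 and -3.96. All 4 were then called lower in embryonic spheres (adjusted p from 0.00508 to 0.00713), at least 11.1-fold, 9.55-fold, 7.12-fold and 6.37-fold higher in adult spheres in that order. They were dim on both embryonic arrays and entered the test through the adult group alone, so that the filter favoured this direction. The number of adipocyte genes called lower went from 6 of 27 tested to 10 of 31. Over all genes it went from 2380 of 13660 to 3016 of 14278. A second Adrb3 probe, well above background on 1 adult array only, read -2.43 and -2.67 against -3.00 and -3.59. Adult array 2 had 4.65% of its spots marked as outliers, against 0.312% on adult array 1. The other 3 untested genes were Lep, Cidec and Gpd1, which makes glycerol phosphate and was well above background on 1 array of each group (-2.02 and -4.41 in adult, -2.68 and -2.74 in embryonic spheres).

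**Figure D3:**
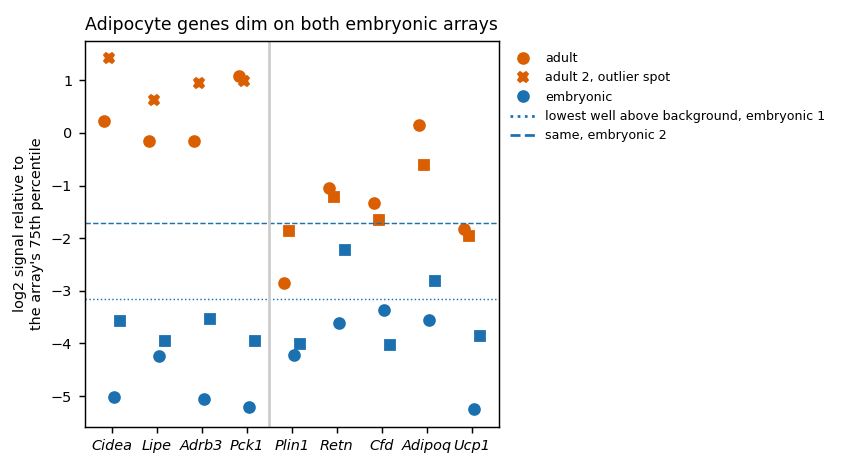
Log2 signal relative to the array's 75th percentile for the 9 adipocyte genes that were bright in adult spheres and dim on both embryonic arrays, with adult in orange and embryonic in blue, circles for replicate 1, squares for replicate 2 and crosses for adult array 2 spots marked as outliers. The horizontal lines are the lowest signals well above background on embryonic array 1 (-3.15, dotted) and embryonic array 2 (-1.72, dashed); every embryonic point lies below the line of its own array.

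Of the 6 adipocyte genes called lower, 5 were dim on both embryonic arrays, all but Ebf1, against 72.1% of all genes called lower. Signal of this kind on the adult arrays was also present in genes mostly restricted to sensory cells. Among 1503 probes for receptors of smell, taste, pheromones and trace amines, 51.3% and 23.2% passed the background mark on adult arrays 1 and 2, against 6.12% and 2.26% in the embryonic pair. The fit called 286 of 329 tested genes of this kind lower in embryonic spheres and 6 higher, a count that the filter favoured, since 318 were bright on both arrays of the adult group and 33 on both of the embryonic group. Markers of skeletal muscle were lower in embryonic spheres for 4 of 5 tested, against 17.4% of all genes. Of these 4, 3 were dim on both embryonic arrays, so that the filter favoured this direction. Muscle also uses Slc2a4, Cd36 and Ppargc1a, which had positive log2 fold changes (0.81, 2.18 and 3.81), with only Ppargc1a called. The summed levels of the 8 muscle markers were 5.80 and 6.39 in adult and 1.51 and 1.68 in embryonic spheres. The part of this adult signal in Adipoq, Cfd, Retn, Plin1, Ucp1 and the 4 genes with a marked spot was not tested.

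How many adipocyte genes were called, and in which direction, depended on the scaling. With every array shifted so that its tested genes have a median of 0, 3 were higher (Klf15, Ppargc1a and Fabp5) and 6 were lower, the same 6 as before, and 27.2% of all calls were higher, against 67.5% with the 75th percentile. With the median over all probes used instead, 21 were higher and 2 lower, and 85.4% of all calls were higher. Klf15 and Fabp5 were called higher under each of the 6 scalings or sources of values compared, and Ppargc1a under each but the normexp background correction. No adipocyte gene was called lower under all 6. Ebf1 was called lower under 5, the exception being the centring on all probes, and Adipoq and Ucp1 under 4. Normexp, which lifts dim signals by a fixed offset, brought the log2 fold change of Klf15 down to 1.61 and that of Adipoq to -0.80, both nearer to 0 than the bounds given above.

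**Figure D4:**
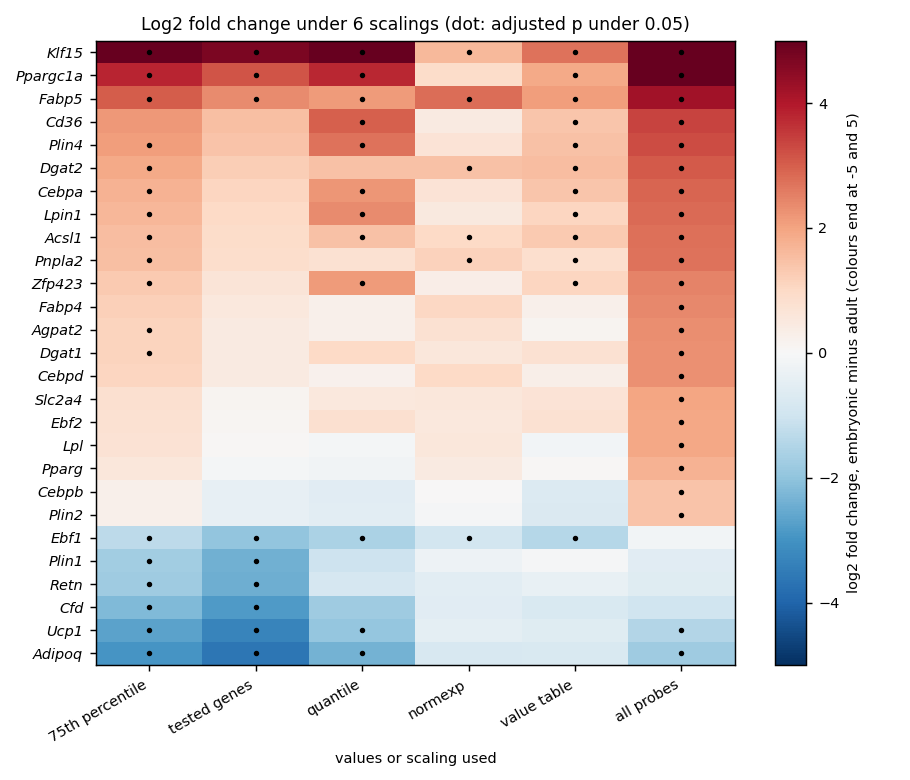
Log2 fold change (colour, embryonic minus adult) of the 27 tested adipocyte genes (rows) under 6 scalings or sources of values (columns), with a dot where the adjusted p was under 0.05. Klf15 and Fabp5 carry a dot in all 6 columns, and the lower calls of Plin1, Retn and Cfd stand in the first 2 columns only.

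Other genes of the same pathways, 122 that are not among the 34, were mostly higher in embryonic spheres where called. Of 100 tested, 43 were higher and 5 lower (43% and 5%, against 36.1% and 17.4% of all genes), with a median of 0.93. Of these 100, 88 were well above background on all 4 arrays, with 39 higher and 2 lower. Over all such genes 43.7% were higher and 2.35% lower, so these calls lie near the background. With the tested genes centred, 17 of the 100 were higher and 10 lower. Insulin signalling genes of fat cells had 7 of 8 tested higher and none lower, with a median of 2.55, and 5 were still higher after that centring. With outlier spots kept, 5 were higher and 2 lower, since a brighter probe then stood for Insr and for Tbc1d4, a regulator of glucose transporter traffic. By the probe used in the main comparison the insulin receptor gene Insr was dim on both adult arrays and at least 4.26-fold higher in embryonic spheres (adjusted p = 0.0101), but by the brighter probe it read 0.40 and 0.57 in adult and -1.74 and -0.92 in embryonic spheres (-1.81, SE 0.40, adjusted p = 0.0177). Tbc1d4 went from 1.36 to -5.26 (SE 0.48, adjusted p = 0.00512) in the same way, its brighter probe being dim on both embryonic arrays. The adaptor genes Pik3r1 (log2 fold change 2.87, SE 0.31) and Irs1 (2.82, SE 0.32) rose with adjusted p of 0.00731. Insulin was in the medium of both groups.

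Early adipogenic regulators had 9 of 11 tested higher and none lower, where 36.1% of all genes were higher and 17.4% lower. After centring 3 were higher and 1 lower, where 1033 and 2765 of all 13660 genes were. Zfp467 (3.16, SE 0.51), Klf5 (3.08, SE 0.56) and Klf4 (2.25, SE 0.49), zinc finger factors that act before or beside Pparg, changed most among them, and Klf5 and Klf4 are also factors of epithelial cells. Of 8 thymic epithelial markers 5 were higher and 1 lower, with summed levels of 50.9 and 31.8 in adult and 150 and 260 in embryonic spheres, and their part in the Klf4 and Klf5 results was not tested. Among partners and cofactors of PPAR receptors 7 of 14 rose and none fell, with Ncor1 (2.13, SE 0.36), Ncoa2 (1.98, SE 0.35) and Ncoa1 (1.83, SE 0.31) first. After centring 2 were higher and 1 was lower.

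Inhibitors of adipocyte formation were called in both directions with large differences. Of 11 tested, 6 rose and 1 fell, against 36.1% and 17.4% of all genes. Dlk1, the preadipocyte factor that holds precursors undifferentiated, read -1.57 and -1.93 in adult spheres, well above background on 1 of the 2 arrays, and 7.26 and 4.59 in embryonic spheres, and its log2 fold change of 7.67 (SE 0.87, adjusted p = 0.00731) was the greatest of all genes tested. Klf3 (2.13, SE 0.31) and Foxo1 (1.73, SE 0.31) rose as well. Wnt10b, a Wnt ligand that blocks adipocyte formation, read 1.75 and 2.14 in adult and -5.15 and -3.68 in embryonic spheres. It was dim on both embryonic arrays and at least 20.8-fold higher in the adult spheres (adjusted p = 0.00731). Wnt10b entered the test through the adult group alone, so that the filter favoured this direction. The part in Wnt10b of the adult signal seen in sensory receptor genes was not tested.

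The remaining lists gave fewer calls, to be read against 36.1% of all genes higher and 17.4% lower. Of 9 preadipocyte and stromal markers tested, 3 rose (Pdgfra by 2.23, Cd24a by 2.12 and Icam1 by 1.43) and Thy1 fell (-1.41, SE 0.37, adjusted p = 0.0269), while the fibroblast list, which shares Pdgfra, had 3 of 8 higher and none lower with summed levels of 401 and 398 in adult and 784 and 452 in embryonic spheres. Other triglyceride synthesis genes had 3 of 12 higher (Pdk4 by 1.82, Gpat4 by 1.34 and Acsl3 by 1.08) and none lower, and other fatty acid uptake genes 2 of 8 (Vldlr by 1.78 and Slc27a1 by 1.05) and none lower. With the tested genes centred these 2 lists had 1 higher and 1 lower, and none higher and 2 lower. Other lipid droplet genes had 1 of 10 higher, the caveola gene Cavin1 (1.26), and none lower. Of 8 other adipokine genes, Rbp4 (2.05), Nampt (1.48) and Angptl2 (1.48) rose, and Cthrc1 (-2.60) was among the 2 that fell. Of 9 other brown and beige fat genes, Fgf21 (2.93) and Esrra (1.24) rose, and Dio2, which activates thyroid hormone in brown fat, was at least 2.45-fold higher in the adult spheres (adjusted p = 0.0255). Prdm16, the factor that sets brown fat identity, was well above background on 1 array and was not tested. Markers of T cells (2 of 5 lower, none higher) and of smooth muscle and pericytes (2 of 6 higher, 3 lower) moved in part as well. The 2 lower T cell markers and 2 of the 3 lower smooth muscle and pericyte markers were dim on both embryonic arrays. The filter thus favoured this direction.

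**Figure D5:**
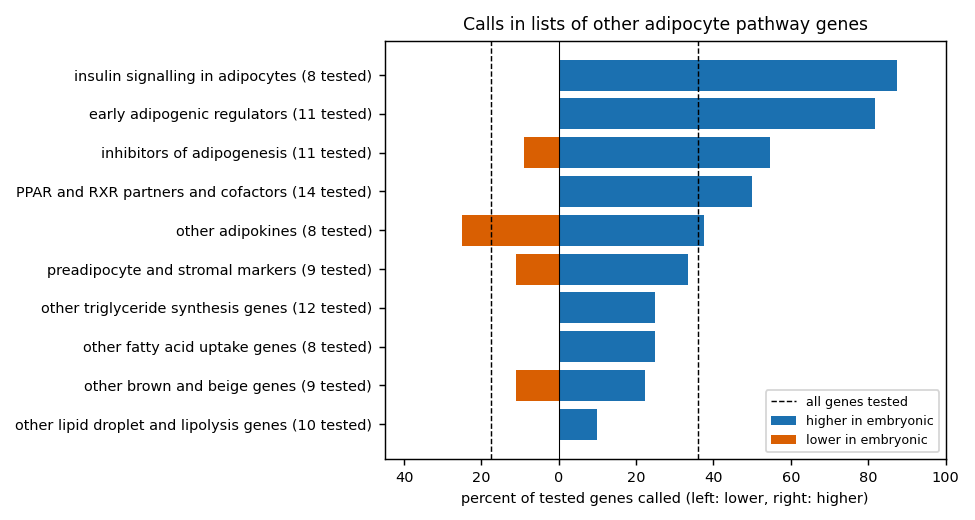
Percent of tested genes called higher (blue, to the right) and lower (orange, to the left) in embryonic spheres for 10 lists of other adipocyte pathway genes, with the number tested in brackets and dashed lines at the shares over all genes tested (36.1% and 17.4%). Insulin signalling genes have the longest bar to the right, with 7 of 8 genes.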

How the data were processed

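RNA of 4 thymosphere samples, 2 adult and 2 embryonic by their titles, was measured on 4 Agilent 1-colour arrays. Labelling with Cy3 started from 25 ng of total RNA, per the labels' protocols. The deposited scanner files hold intensity per spot, extracted with Agilent Feature Extraction 10.7.3.1 per the submitters' processing notes. The deposited value table, also linear intensity, has column medians of 34.4, 35, 35.7 and 35.1, and its processing and centring are not given in the sources used here; on the log2 scale each column followed its own array's median spot signals with r of 0.994 to 0.998.

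Control spots and outlier spots (185, 2756, 120 and 95 per array) were left out, and no spot was saturated. Log2 processed signals were taken relative to the 75th percentile (132 and 66.0 on the adult, 126 and 61.5 on the embryonic arrays), and spots of 1 probe were averaged. Of 55681 probes 28026 (50.3%) were named through RefSeq accessions of GRCm38.p6, without versions. A gene was represented by its tested probe of highest mean signal, probes bright on all 4 arrays first and then probes with a value on every array. All 4 arrays entered limma 3.58.1 (lmFit and eBayes, R 4.3.3) without covariates, with Benjamini-Hochberg adjustment over 13660 genes. The steps were tested on simulated data.

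For a gene dim on both arrays of a group a bound is given. Such a gene entered the test through the other group alone, so that the filter favoured the direction in which that group is higher. Each dim value was first raised to the lowest signal well above background on its array, where it lay under it, and the bright group's mean was then divided by the mean of these values. Bounds hold for the scaling used. Summed levels add the linear signals of a list's genes that have a value on every array, each in units of the array's 75th percentile.

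The 34 genes, the lists and the naming rule (all members, and up to 3 called genes per direction of each other list) were chosen with earlier results of these data known; Prdm16, Cd22 and other genes named as not called, and the CCAAT search, were added after their values were seen. A gene that this rule would name is not reported here. Alternatives changed the background correction, the scaling, the source of values, the filter, the probe rule, the prior, the outlier spots, the replicate number and each array. The files hold no mean spot signal, so normexp (offset 50) used the median spot signal.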

Additional observations from a re-analysis of the deposited data

How the results depend on the processing

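Under 16 alternatives the log2 fold changes of the 27 tested adipocyte genes kept their direction in 410 of 421 values. The 11 that turned were those of Cebpb (-0.56 with quantile normalization, -0.41 with the tested genes centred, -0.68 in the deposited value table), Plin2 (-0.53, -0.42 and -0.73 in the same order, and -0.07 with normexp), Lpl (-0.10 with quantile normalization, -0.14 in the value table) and Pparg (-0.16 with quantile normalization, -0.10 with the tested genes centred), none of them called. All genes called numbered 7314, against 3332 with normexp, 4849 with quantile normalization, 11521 with each array centred on all probes, 3798 with the tested genes centred and 2523 without the filter on dim probes, which tests more genes. Adipocyte genes called higher numbered 12, against 5, 21, 3 and 3 with normexp, all probes centred, tested genes centred and no filter. Those called lower numbered 6, against 1 with normexp, 3 with quantile normalization, 2 with all probes centred, 1 in the value table, 1 where signal was asked on all 4 arrays, which leaves 16 of the genes, and 10 with outlier spots kept, which adds 4. Leaving out 1 array gave 0 to 7451 genes called, 0 to 16 adipocyte genes higher and 0 to 5 lower, 0 without either adult array; the lone array is then assumed to vary like the pair of the other group. With the replicate number as a block 7006 genes were called, 11 adipocyte genes higher and 6 lower. Deviations of same-numbered arrays correlated at 0.07 over 13398 genes after scaling, which removes any brightness that such arrays share. Before scaling, the replicate 1 arrays were the brighter in both groups (75th percentiles of 132 and 126, against 66.0 and 61.5 for replicate 2). A shared preparation of same-numbered arrays was not tested. The cause of these shifts was not tested. The median log2 fold change of all genes was 0.80, and 0.42 with normexp, 0.31 with quantile normalization, 1.98 with all probes centred, 0.13 with the tested genes centred and 0.29 in the value table. Signal over background limits the 5 lower calls and the 2 higher calls (Klf15 and Ppargc1a) with a dim group to bounds.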
